A study of Mus musculus with 7 samples.

Results

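The hormone signalling genes Greb1, Prlr and Esr1 are 3 of the 42256 genes in a count table of kidneys from 7 mice. Greb1 and Prlr were chosen by their measured levels, which were much lower in the libraries labelled CDH11-/- than in those labelled CDH11+/+, so their levels are described below and not tested. Esr1 was chosen as a regulator of these and not for its own level, so its difference between the genotypes was tested.

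Greb1 encodes a cofactor of the estrogen receptor and is itself a classic estrogen-induced gene of breast and uterus. Prlr encodes the prolactin receptor, a cytokine receptor without enzyme activity of its own that signals through the kinase JAK2 and the transcription factor STAT5. In the mouse kidney it is a gene of the tubule epithelium that is higher in females than in males. Esr1 encodes estrogen receptor alpha, a nuclear receptor that binds estradiol, attaches to DNA at estrogen response elements and recruits coactivators or corepressors.

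All mice were adult males of a mixed 129S1/Sv x C57BL/6 background. In each, a kidney was taken out and an osmotic pump then delivered angiotensin II at 800 ng/kg/min, a hypertensive model of kidney injury, and tissue was collected 4 weeks after surgery. There were 3 libraries labelled CDH11+/+ and 4 labelled CDH11-/-, each from total RNA of whole kidney. The CDH11 allele is not described in the labels, and every mouse had the surgery and the pump. Differences that preceded the injury and differences in the response to it cannot be told apart. In bulk tissue, fewer cells of a type and less RNA per cell cannot be told apart either.

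Total counts were 72087906 to 84786351 per library. Kidney markers were abundant, with the proximal tubule markers of segments S1 and S2 summing to 6699 to 7866 CPM (counts scaled to a common library size) in the CDH11+/+ libraries and to 10650 to 12230 CPM in the CDH11-/- ones. Cdh11 itself did not follow the labels. It stood at 6.79, 4.52 and 10.77 CPM in the libraries labelled CDH11+/+ and at 11.26, 9.56, 11.64 and 10.98 CPM in those labelled CDH11-/-. Its log2 fold change was 0.56 (edgeR adjusted p = 0.14), and 0.93 without CDH11+/+ replicate 3 (edgeR adjusted p = 0.0043). With each library left out in turn it was 0.30 to 0.93, and with other ways of processing all 7 libraries 0.08 to 0.75. The authors' normalized values of Cdh11 were 787.5, 312.9 and 1064 in the CDH11+/+ and 783.8, 681.0, 816.8 and 758.1 in the CDH11-/- libraries. Every direction given here is therefore between libraries as labelled. Summed CPM of 4 Y-linked genes was 64.7 in CDH11+/+ replicate 3 and 110.8 to 144.9 in the other 6 libraries, and Xist, the RNA of the inactive X chromosome, was at 0.13 to 0.94 CPM in the 7 libraries. Results that rest on that library are given with and without it. Mitochondrial ribosomal RNA took 13.5% to 18.2% of counts in the CDH11+/+ and 10.7% to 13.5% in the CDH11-/- libraries, and its part in the results was not tested.

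The start regions of Greb1 and Prlr are shown because these genes share their direction in the comparison, and a shared short motif near their starts would be visible there. Each line gives the 250 bases before a transcript start from RefSeq (GRCm38.p6), 5′ to 3′ on the gene's strand. Capitals mark matches, on either strand, to an estrogen response half-site (GGTCA or TGACC) or a STAT5 site (TTCNNNGAA).
Greb1, start 1, chr12:16800887-16801136, minus strand: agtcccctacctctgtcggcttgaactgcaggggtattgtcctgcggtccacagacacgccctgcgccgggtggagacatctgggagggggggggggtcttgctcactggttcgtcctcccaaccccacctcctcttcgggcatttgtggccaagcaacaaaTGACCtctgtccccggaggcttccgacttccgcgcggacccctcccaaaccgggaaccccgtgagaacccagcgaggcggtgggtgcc
Prlr, start 1, chr15:10176988-10177237, plus strand: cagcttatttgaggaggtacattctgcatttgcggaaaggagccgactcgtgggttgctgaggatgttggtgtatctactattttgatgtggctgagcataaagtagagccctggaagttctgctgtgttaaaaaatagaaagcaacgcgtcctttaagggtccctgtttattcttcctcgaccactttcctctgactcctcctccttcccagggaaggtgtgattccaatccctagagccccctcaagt
Prlr, start 2, chr15:10223656-10223905, plus strand: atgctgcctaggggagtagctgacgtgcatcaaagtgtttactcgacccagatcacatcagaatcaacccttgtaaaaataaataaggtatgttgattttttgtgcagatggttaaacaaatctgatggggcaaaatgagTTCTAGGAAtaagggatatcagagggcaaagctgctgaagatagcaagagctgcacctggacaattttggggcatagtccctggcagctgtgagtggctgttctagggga

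The Greb1 window held 1 estrogen response half-site, 88 to 84 bases before the start. A further Greb1 start, not printed, had 2 half-sites, 194 to 190 and 85 to 81 bases before it. Such a half-site occurs in 35.2% of 32817 windows of the same length, so its presence does not set Greb1 apart. The second Prlr start had a STAT5 site, 110 to 102 bases before it, a motif that 7.01% of windows hold. Another Prlr start, not printed, had neither motif. The same STAT5 letters, TTCTAGGAA, lay 188 to 180 bases before the second of the 2 Esr1 starts. The palindromic estrogen response element, GGTCA and TGACC with any 3 bases between them, is present in 0.064% of windows and matched in none of the 7 start windows of these genes. The window of Esr1 start 1 lay wholly within annotated exons. A match describes letters in this window, and distal elements were not searched.

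Greb1 (ENSMUSG00000036523, mm10 chromosome 12, 16670615 to 16800886, minus strand) went from a moderate level to near the lower end of what was counted. The CDH11+/+ libraries held 1204, 1700 and 2398 Greb1 counts and the CDH11-/- libraries 34, 57, 37 and 35. Scaled for depth, these were 17.07, 22.74 and 27.71 CPM against 0.40, 0.80, 0.43 and 0.44 CPM. Every CDH11+/+ library lay more than an order of magnitude above every CDH11-/- library. The group means were 22.5 ± 5.33 CPM (SD, n = 3) and 0.516 ± 0.188 CPM (SD, n = 4), a log2 fold change of -5.46 (SE 0.26). It ranked 1st by fall of the 14024 genes that averaged 1 CPM or more, the property for which it was chosen. The next gene in that order was Ugt1a2, at -4.90.

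Within the CDH11-/- group, replicate 2 was higher in CPM than the other 3 libraries. Its exact Poisson interval (95%, counting error only) was 0.603 to 1.03 CPM, and that of replicate 3 was 0.301 to 0.59 CPM. The intervals of replicates 1 and 4 were 0.278 to 0.561 and 0.305 to 0.61 CPM, so that of replicate 4 just reached that of replicate 2. Within the CDH11+/+ group the intervals of the 3 libraries, 16.1 to 18.1, 21.7 to 23.8 and 26.6 to 28.8 CPM, were separate.

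Prlr (ENSMUSG00000005268, mm10 chromosome 15, 10177238 to 10349180, plus strand) was also lower in the CDH11-/- libraries, but remained well above the counting limit in each. Its counts were 3980, 2464 and 3404 in the CDH11+/+ libraries and 998, 524, 354 and 521 in the CDH11-/- ones. In CPM these were 56.41, 32.96 and 39.34 against 11.79, 7.32, 4.09 and 6.53. The groups did not overlap, as in 38.5% of all tested genes, and Prlr was chosen for its large fall. The lowest CDH11+/+ library stood well above CDH11-/- replicate 1, the highest of its group. The group means were 42.9 ± 12.1 CPM (SD, n = 3) and 7.43 ± 3.21 CPM (SD, n = 4), a 5.77-fold difference with a log2 fold change of -2.53 (SE 0.36). In the order of falls it ranked 21st, between Aldh1a1 (-2.58) and Cemip (-2.49).

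Among the CDH11-/- libraries the coefficient of variation was 43.2% for Prlr, 36.3% for Greb1 and 12.2% for Esr1. With 4 libraries, and only 34 to 57 counts of Greb1 in each, Prlr and Greb1 are not set apart by this. In the CDH11+/+ group the coefficients were 28.3%, 23.7% and 12.0%. The libraries at the extremes differed between the genes. Among the CDH11+/+ libraries replicate 1 had the highest Prlr and the lowest Greb1. Among the CDH11-/- libraries replicate 1 had the highest Prlr and, in CPM, replicate 2 the highest Greb1.

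Esr1 (ENSMUSG00000019768, mm10 chromosome 10, 4611593 to 5005614, plus strand), the receptor, moved the other way. It stood at 32.42, 30.63 and 25.59 CPM in the CDH11+/+ libraries and at 35.70, 46.56, 37.01 and 39.64 CPM in the CDH11-/- ones. The groups did not overlap, though CDH11+/+ replicate 1 and CDH11-/- replicate 1 lay close to each other. The Esr1 level averaged 29.5 ± 3.54 CPM (SD, n = 3) in the CDH11+/+ and 39.7 ± 4.84 CPM (SD, n = 4) in the CDH11-/- libraries, a rise of 1.34-fold (log2 fold change 0.43, SE 0.11, 95% interval 0.18 to 0.68, edgeR quasi-likelihood test with Benjamini-Hochberg adjustment, adjusted p = 0.0185). In the same test 16.8% of the 17964 tested genes were called higher and 12.9% lower at an adjusted p under 0.05, 29.7% in all, and the groups did not overlap in 38.5%. Without CDH11+/+ replicate 3, the library with less Y-linked RNA and the lowest Esr1, the log2 fold change was 0.32 (edgeR, adjusted p = 0.0451).

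**Figure D1:**
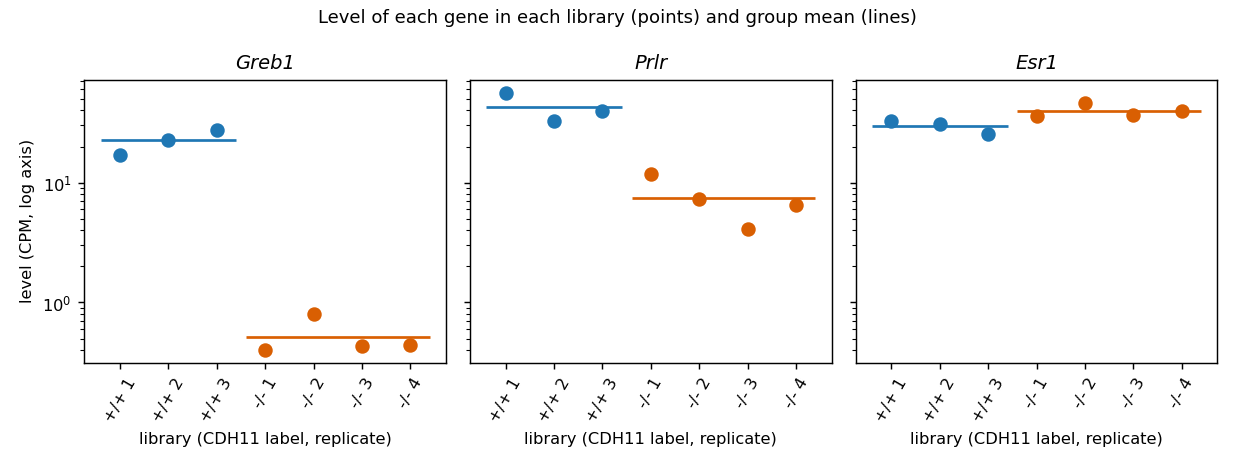
Level of Greb1, Prlr and Esr1 in CPM (log axis) in each of the 3 CDH11+/+ (blue) and 4 CDH11-/- (orange) libraries, with lines at the group means. Greb1 and Prlr lie lower in every CDH11-/- library (0.40 to 0.80 and 4.09 to 11.79 CPM), whereas Esr1 lies slightly higher (35.70 to 46.56 CPM).

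Divided by the length of their merged exons, the 3 genes were at like levels in the CDH11+/+ libraries and far apart in the CDH11-/- ones. Per kilobase, the mean level in the CDH11+/+ group was 2.80 CPM for Prlr, 2.35 CPM for Greb1 and 2.16 CPM for Esr1. The ranges over libraries, 2.15 to 3.68, 1.78 to 2.89 and 1.87 to 2.37 CPM per kilobase, overlapped, so these neighbours in the order are not set apart. In the CDH11-/- group the order was Esr1 at 2.91, Prlr at 0.485 and Greb1 at 0.0539 CPM per kilobase. There the ranges, 2.61 to 3.41, 0.267 to 0.768 and 0.0419 to 0.0831 CPM per kilobase, did not overlap. Greb1 and Prlr were chosen for being much lower in these libraries, so their distance from Esr1 there reflects that choice. The Esr1 level per kilobase was 0.647 to 1.33 times that of Greb1 in the CDH11+/+ libraries and 41.0 to 63.4 times in the CDH11-/- libraries.

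The authors' normalized table scales each gene by its own factor, and for Prlr this factor differed between libraries. Relative to the median factor of a library, it was 1.26, 1.27 and 1.27 in the CDH11+/+ libraries and 1.23, 0.677, 0.73 and 0.811 in the CDH11-/- ones. CDH11-/- replicate 1, the library with the most Prlr of its group, had the factor of the CDH11+/+ libraries, and the other 3 had a lower one. A difference between group means as large as this, in either direction, was present in 1.38% of 17815 tested genes with a factor in every library. In the normalized values the group means of Prlr therefore differed 7.85-fold, against 5.77-fold in CPM. Prlr is known to give long and short receptor forms, but counts per gene do not separate them, and the sources used here do not say what sets the factors. Their link to transcript forms was not tested.

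The same factor was 0.936, 1.04 and 0.922 for Greb1 in the CDH11+/+ libraries and 0.773, 0.808, 0.932 and 1.91 in the CDH11-/- ones. The value of 1.91, in CDH11-/- replicate 4, rests on 35 counts. With it, the normalized group means of Greb1 differed 39.7-fold, against 43.6-fold in CPM. In the normalized values replicate 4 was the highest of the CDH11-/- group for Greb1, at 66.22 against 51.38 in replicate 2. In CPM replicate 2 was the highest. For Esr1 the factor lay between 0.905 and 1.12 in all 7 libraries, and the normalized group means differed 1.22-fold, against 1.34-fold in CPM.

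**Figure D2:**
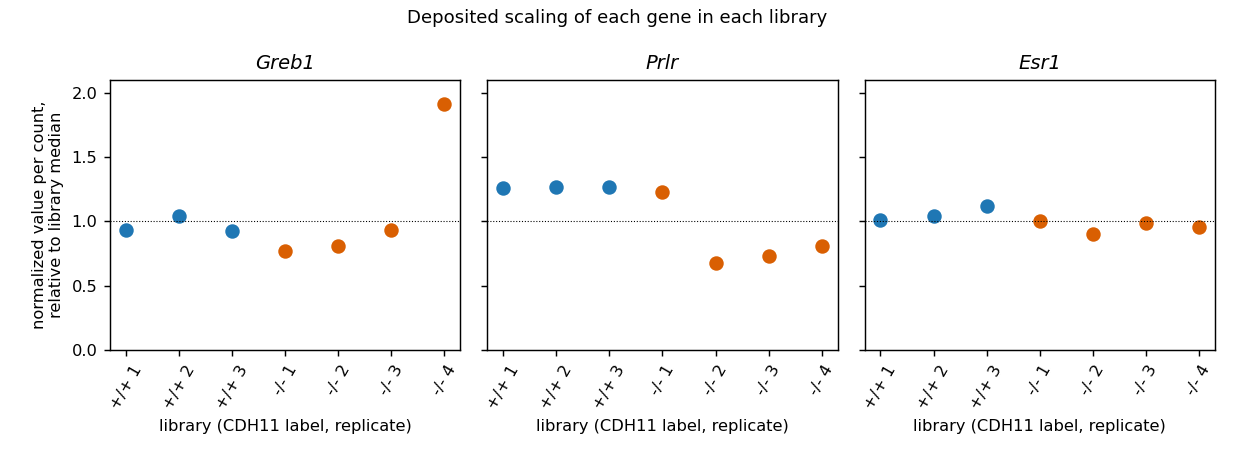
Normalized value per count in the authors' table, divided by the median over genes of the same library, for the 3 CDH11+/+ (blue) and 4 CDH11-/- (orange) libraries, with a dotted line at 1. Prlr lies near 1.26 in 4 libraries and between 0.677 and 0.811 in CDH11-/- replicates 2 to 4, and Greb1 reaches 1.91 in CDH11-/- replicate 4.

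Other steroid receptors and their orphan relatives showed small differences. Of 9 receptors, 8 passed the filter on low counts, 1 rose and 1 fell, against 29.7% of all genes called. Their median log2 fold change was 0.00, and that of all tested genes -0.01. The estrogen-related receptors, orphan relatives of Esr1 that act on energy metabolism, gave both calls. Esrrg rose 1.29-fold (means of 54.2 and 70.0 CPM, SDs of 2.71 with n = 3 and 4.65 with n = 4; edgeR adjusted p = 0.00421), and Esrrb fell 1.52-fold (means of 44.2 and 29.1 CPM, SDs of 6.08 with n = 3 and 4.56 with n = 4; edgeR adjusted p = 0.0108). With the deposited factors the call of Esrrg was lost (adjusted p of up to 0.103), leaving 0 receptors higher.

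The receptors named next were picked out after their values were seen. The progesterone receptor gene Pgr, a textbook estrogen target, was at 1.36 ± 0.224 CPM (SD, n = 3) and 1.61 ± 0.132 CPM (SD, n = 4; edgeR adjusted p = 0.321). Esr2, the gene of estrogen receptor beta, did not pass the filter, with 5, 7 and 6 counts in the CDH11+/+ libraries and 48, 3, 7 and 39 in the CDH11-/- ones. Its highest counts were in CDH11-/- replicates 1 and 4. Nr3c2, the mineralocorticoid receptor gene, had a log2 fold change of -0.26 (edgeR adjusted p = 0.0546). It was called lower without CDH11+/+ replicate 3 or CDH11-/- replicate 4, and in each of the 9 settings that changed scaling, filter or test, where its log2 fold change was -0.46 to -0.25. The count of receptors that fell was then 2.

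Cofactors through which estrogen receptors act were lower more often than higher. Of 17 genes, 16 were tested, 7 fell and 1 rose, which is 8 of 16 called against 29.7% of all tested genes, of which 12.9% were called lower. The log2 fold changes had a median of -0.18 against -0.01 over all genes. The coactivator Ncoa3 fell 1.27-fold, the acetyltransferases Crebbp and Ep300 1.27-fold and 1.16-fold, and the methyltransferase Carm1 1.15-fold. The transcription factors Tfap2a and Gata3, known from distal nephron and collecting duct as well as breast, fell 1.71-fold and 1.35-fold. The distal nephron markers were lower in the same libraries, at 3901 to 4482 summed CPM against 5608 to 6243 (3 of 5 called lower), and their part in these differences was not tested.

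Several of these calls were close to the threshold. Without CDH11+/+ replicate 1 or 2 or CDH11-/- replicate 2 or 3, and with the deposited factors, 4 cofactors fell in place of 7. The call of Gata3 was lost without each library except CDH11+/+ replicate 3, that of Carm1 without each library except CDH11-/- replicate 1, and that of Ep300 without each except CDH11+/+ replicate 3 and CDH11-/- replicate 4 (edgeR adjusted p of up to 0.118, 0.103 and 0.135). The deposited factors also ended the calls of Gata3 (adjusted p of up to 0.102), Carm1 and Ep300 (up to 0.431), and that of Carm1 was lost with no filter on low counts and with limma-voom as well (up to 0.105 over these settings). Those of Ncoa3, Crebbp and Tfap2a were kept in each of the 16 alternatives run.

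Greb1l, the paralog of Greb1 and a developmental gene of the kidney, was the 1 gene of this list that rose. It stood at 12.59, 12.27 and 12.79 CPM in the CDH11+/+ libraries and at 15.70, 20.47, 25.34 and 25.96 CPM in the CDH11-/- ones. The groups did not overlap, as in 38.5% of all tested genes, and the spread was larger in the CDH11-/- group. The fold change was 1.74 (log2 0.80, SE 0.16, edgeR adjusted p = 0.00711), opposite in direction to Greb1.

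**Figure D3:**
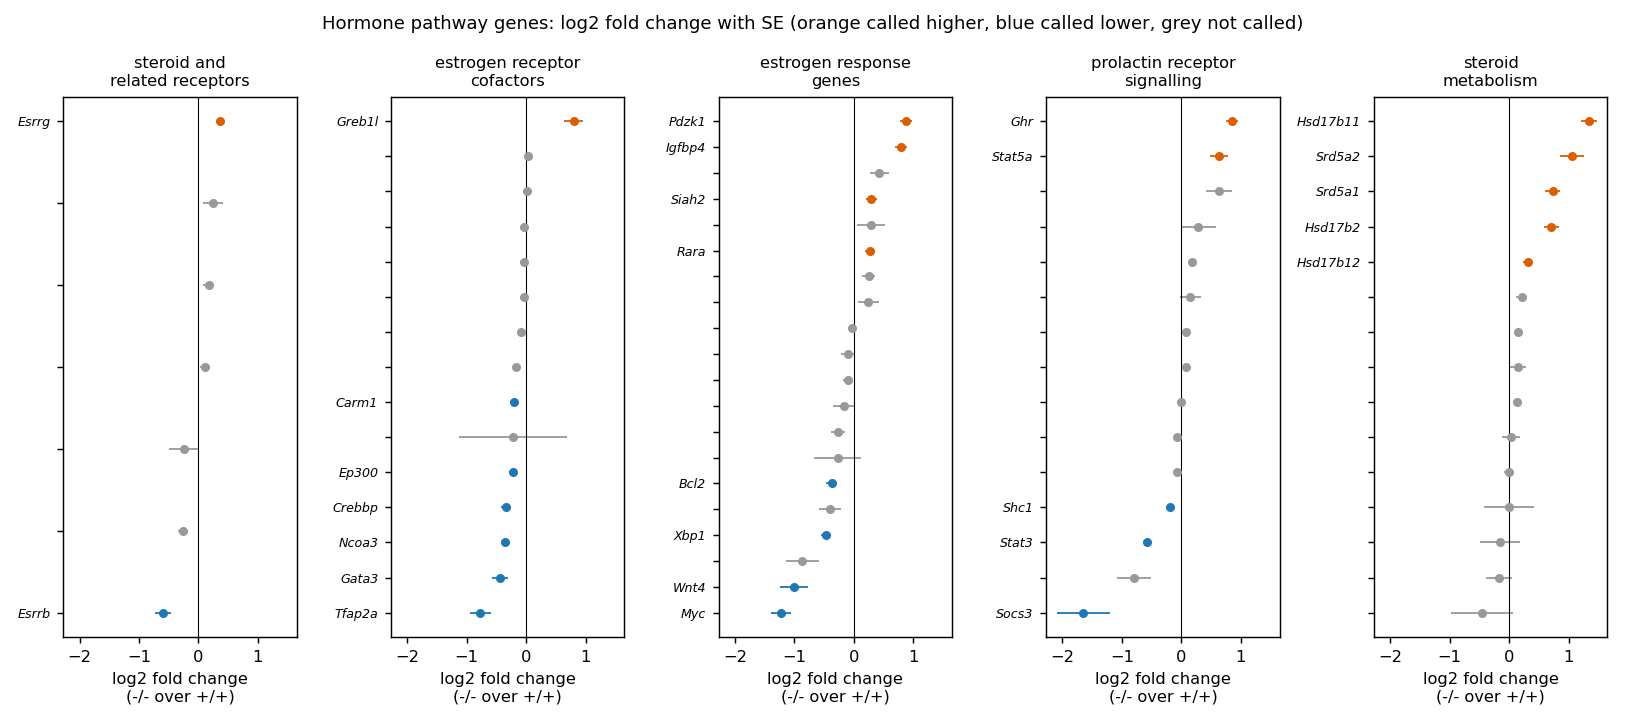
Log2 fold change (CDH11-/- over CDH11+/+) with SE for tested genes of the 5 hormone lists, coloured by call, with the names of called genes. Calls lie on both sides of 0 in 4 lists, and in the steroid metabolism list the 5 called genes shown lie above 0.

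Genes that estrogen is known to induce in breast or uterus were called in both directions. Of 22, 20 were tested, 4 rose and 4 fell, or 40.0% called against 29.7% of all tested genes. Their log2 fold changes had a median of -0.10. Those that fell were Myc, a growth transcription factor (2.33-fold, edgeR adjusted p = 0.000981), the epithelial signal Wnt4 (from a mean of 1.61 to 0.802 CPM), the secretory pathway regulator Xbp1 (1.38-fold) and the survival gene Bcl2 (1.29-fold). Those that rose were the scaffold Pdzk1 (1.83-fold, edgeR adjusted p = 0.0004), the growth factor binding protein Igfbp4 (1.73-fold), the ubiquitin ligase Siah2 (1.23-fold) and the retinoic acid receptor Rara (1.21-fold). Pdzk1 is also a scaffold of the proximal tubule brush border, whose markers were higher in the same libraries (4 of 6 markers of segments S1 and S2 and 5 of 5 of segment S3 called higher), and their part in its rise was not tested.

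Myc was at 9.23, 10.21 and 9.89 CPM in the CDH11+/+ libraries and at 3.57, 5.51, 4.48 and 3.25 CPM in the CDH11-/- ones. These did not overlap, as in 38.5% of all tested genes. The calls of Myc, Wnt4, Xbp1, Pdzk1 and Igfbp4 were kept in the 16 alternatives. Without CDH11+/+ replicate 1 or 2, 2 genes of the list rose. The call of Bcl2 was lost without either of these (edgeR adjusted p of up to 0.0556), that of Rara without either or without CDH11-/- replicate 2 or 3 (up to 0.119), and that of Siah2 without either or without CDH11-/- replicate 1, 3 or 4 (up to 0.153).

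The prolactin receptor signalling list, which holds hormones, a related receptor and downstream genes, was called in both directions. Of 17 genes, 15 were tested, 2 rose and 3 fell. The share called, 33.3%, is near the 29.7% of all tested genes, and the log2 fold changes had a median of 0.08. The hormone genes Prl and Gh, made in the pituitary and, like Jak2, picked out after their values were seen, had 0 counts in every library, which allows up to 0.0347 to 0.0425 CPM (3 counts per library). Jak2, the kinase bound to the receptor, was at 28.5 ± 2.01 CPM (SD, n = 3) and 30.1 ± 1.84 CPM (SD, n = 4; edgeR adjusted p = 0.455). Ghr, the growth hormone receptor and closest relative of Prlr in this list, rose 1.80-fold (means of 308 and 555 CPM, SDs of 37.9 with n = 3 and 49.96 with n = 4; edgeR adjusted p = 0.000555), while Prlr was lower in the same libraries.

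Stat5a, a transcription factor activated by both receptors, rose 1.55-fold (edgeR adjusted p = 0.0154), a call lost without CDH11+/+ replicate 1 or 2 (adjusted p of up to 0.0648). Stat3 fell 1.49-fold (edgeR adjusted p = 0.000707), and the adaptor Shc1 fell 1.14-fold, a call lost without CDH11+/+ replicate 1 or 2 or CDH11-/- replicate 3 or 4 (adjusted p of up to 0.0684) and with the deposited factors (up to 0.101). Socs3, a feedback inhibitor that cytokines induce through Stat3, was called lower by 3.14-fold, but the size of this fold rests on CDH11+/+ replicate 3. Socs3 stood there at 14.58 CPM, against 4.69 and 3.91 CPM in the other CDH11+/+ libraries and 2.12 to 2.71 CPM in the CDH11-/- ones. Without that library its log2 fold change was -0.81 in place of -1.65, and it was still called lower (edgeR adjusted p = 0.00559). The call was lost without any 1 of the CDH11-/- libraries (edgeR adjusted p of up to 0.0767), with no filter on low counts and with limma-voom (up to 0.0791).

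Socs2 and Cish, feedback inhibitors that STAT5 induces, were picked out after their values were seen. Socs2 was at 15.36, 16.60 and 14.34 CPM in the CDH11+/+ libraries and at 14.85, 24.72, 31.53 and 24.64 CPM in the CDH11-/- ones (log2 fold change 0.63, edgeR adjusted p = 0.0683). Cish was at 31.20, 36.72 and 27.33 CPM and at 22.36, 47.26, 52.97 and 32.13 CPM (log2 fold change 0.29, edgeR adjusted p = 0.516). In both genes CDH11-/- replicate 1, the library with the most Prlr of its group, was the lowest of the 4, and replicate 3, with the least Prlr, the highest. This order was seen in only 4 libraries, and a link of either gene to Prlr was not tested. Without CDH11-/- replicate 1, Socs2 was called higher (log2 fold change 0.81, edgeR adjusted p = 0.00183), and over the 16 alternatives its adjusted p was otherwise above 0.05 except with DESeq2 (adjusted p = 0.01). The number of genes of this list that rose was 1 without CDH11+/+ replicate 1 or 2 and 4 without CDH11-/- replicate 1, and the number that fell was 1 without CDH11-/- replicate 3 or 4.

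Enzymes that make, inactivate or convert sex steroids rose in 6 of 16 tested genes and fell in 0, of 20 in the list. The median log2 fold change was 0.15, and the share called, 37.5%, compares with 29.7% over all genes. Hsd17b11, a dehydrogenase of lipid droplets that also acts on androgen metabolites, rose 2.54-fold (means of 60.5 and 154 CPM, SDs of 8.77 with n = 3 and 22.0 with n = 4; edgeR adjusted p = 0.000247). Hsd17b2, which oxidises estradiol to estrone and testosterone to androstenedione, rose 1.64-fold, and Hsd17b12 1.25-fold. Srd5a1 and Srd5a2, the reductases that turn testosterone into dihydrotestosterone, rose 1.66-fold and 2.09-fold. These 5 calls were kept in the 16 alternatives. The aromatase gene Cyp19a1, which makes estradiol and was also picked out later, had 0 counts in every library.

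Over the 5 hormone lists together, 73 of 83 distinct genes were tested, 14 rose and 15 fell. That is 39.7% called, against 29.7% of all genes. The largest called fold was 3.14, that of Socs3, the size of which rests on CDH11+/+ replicate 3.

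Kidney genes known for a sex difference in the mouse differed between the same groups. The 3 genes listed as higher in females fell: Cyp4a14, a fatty acid hydroxylase, 19.5-fold, Slc7a12, an amino acid transporter, 7.07-fold, and Abcc3, an export pump, 5.39-fold. The 8 listed as higher in males, among them Kap and Odc1, rose by 2.67-fold to 18.1-fold. Over all tested genes 12.9% were called lower and 16.8% higher. These lists were drawn up with the results known and are no independent evidence of a direction. The call of Slc7a12 was lost without CDH11+/+ replicate 3 or CDH11-/- replicate 2 or 3 (edgeR adjusted p of up to 0.0574) and with no filter on low counts (0.051), and its log2 fold change of -2.82 was -2.17 without CDH11+/+ replicate 1. For Slc7a13, of the male list, the log2 fold change of 3.89 was 4.51 without that library.

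The genes with the profile most like each member were sought among 12680 tested genes that averaged 1 CPM or more and carry an established name. Likeness was the root mean square difference between log2 levels centred on their mean over the 7 libraries, 0 for the same profile. Both the difference between the groups and the spread within them enter it. From the spread within groups alone, the distance to Greb1 was 0.349 for Ugt1a2 and 0.381 for Gsta1, against 0.386 and 0.987 in full. Closest to Greb1 were Ugt1a2 (0.386), Cyp4a14 (0.905), Ugt1a10 (0.979), Gsta1 (0.987) and Marc1 (1.02). These are genes of glucuronidation, fatty acid hydroxylation, glutathione conjugation and amidoxime reduction, and they were 10.9-fold to 29.8-fold lower. Ugt1a genes share exons and Gsta genes have near-identical copies, so their separate values are uncertain.

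Closest to Prlr were Kynu (0.309), an enzyme of tryptophan breakdown, Gsta2 (0.365), the vitamin D binding protein gene Gc (0.385), Bhmt (0.389), which remethylates homocysteine, and Cemip (0.416), which degrades hyaluronan. They were 4.48-fold to 7.43-fold lower. Among the genes compared with Greb1, Prlr ranked 18th, at 1.44. Among those compared with Prlr, Greb1 ranked 8728th, at the same distance. Both genes were chosen for a large fall, and the distance mostly follows that difference. Closest to Esr1 were Tmem30a (0.039), Kdsr (0.045), C1d (0.050), Scai (0.053) and Prdx1 (0.054), which were 1.34-fold to 1.40-fold higher. The call of Scai was lost without CDH11+/+ replicate 2 or 3 or CDH11-/- replicate 2 or 4 (edgeR adjusted p of up to 0.0674), and with limma-voom or the deposited factors (up to 0.168). The distances are smaller for Esr1 because its profile spans a smaller range.

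**Figure D4:**
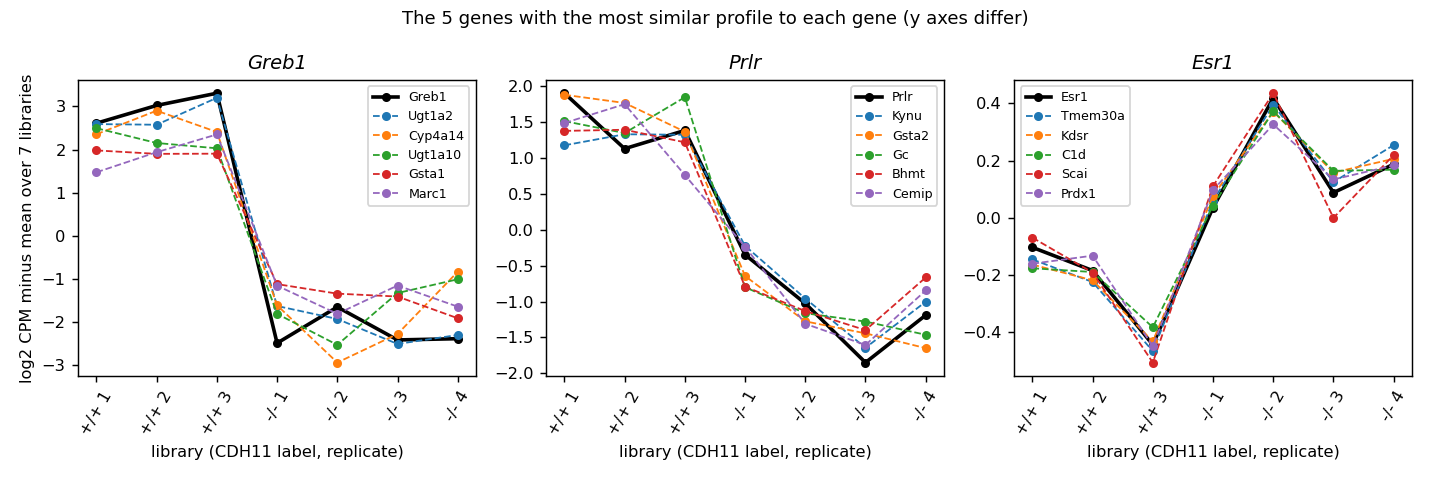
Log2 CPM centred on the mean over the 7 libraries, for each member (black) and the 5 genes with the most similar profile (colours). The dashed and solid lines join values of 1 gene and imply no order of libraries, and the y axes differ, from about 3 above and below the mean for Greb1 to about 0.4 for Esr1.

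Genes next to the members on the chromosome were called in both directions. There were 36 annotated genes whose bodies reach within 500 kb of the 3 members, 23 of them tested, of which 2 were called higher and 7 lower (39.1%, against 29.7% over all genes). Near Greb1, E2f6, a repressor of the cell cycle whose start lies 10.1 kb from that of Greb1, fell 1.23-fold, the kinase gene Rock2, at 94.0 kb, fell 1.67-fold, the chaperone gene Pdia6 fell 1.22-fold, and the lipid phosphatase gene Lpin1 rose 1.84-fold. Near Prlr, 1 of 7 tested genes was called, Agxt2, an aminotransferase of the kidney tubule, which rose 1.32-fold. Gm21973, a gene model that overlaps Prlr on the same strand, had a mean below 0.01 CPM in each group.

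Near Esr1, the scaffold gene Akap12 fell 1.56-fold, the nuclear envelope gene Syne1 1.28-fold, the noncoding gene Gm21781 1.22-fold and the mitochondrial gene Rmnd1 1.18-fold, while Esr1 rose. Without CDH11+/+ replicate 1 the call of Agxt2 was lost (edgeR adjusted p = 0.0622), leaving 1 neighbour higher, and without CDH11+/+ replicate 2 there were 3. Without CDH11-/- replicate 3, 4 neighbours were lower. The call of Pdia6 was lost without each library except CDH11+/+ replicate 2 and CDH11-/- replicate 2, that of Rmnd1 without CDH11+/+ replicate 2 or 3 or CDH11-/- replicate 1 or 3, and that of Gm21781 without CDH11+/+ replicate 1 or CDH11-/- replicate 3 (edgeR adjusted p of up to 0.13, 0.0905 and 0.063). That of Rmnd1 was also lost with the deposited factors (up to 0.0671).

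**Figure D5:**
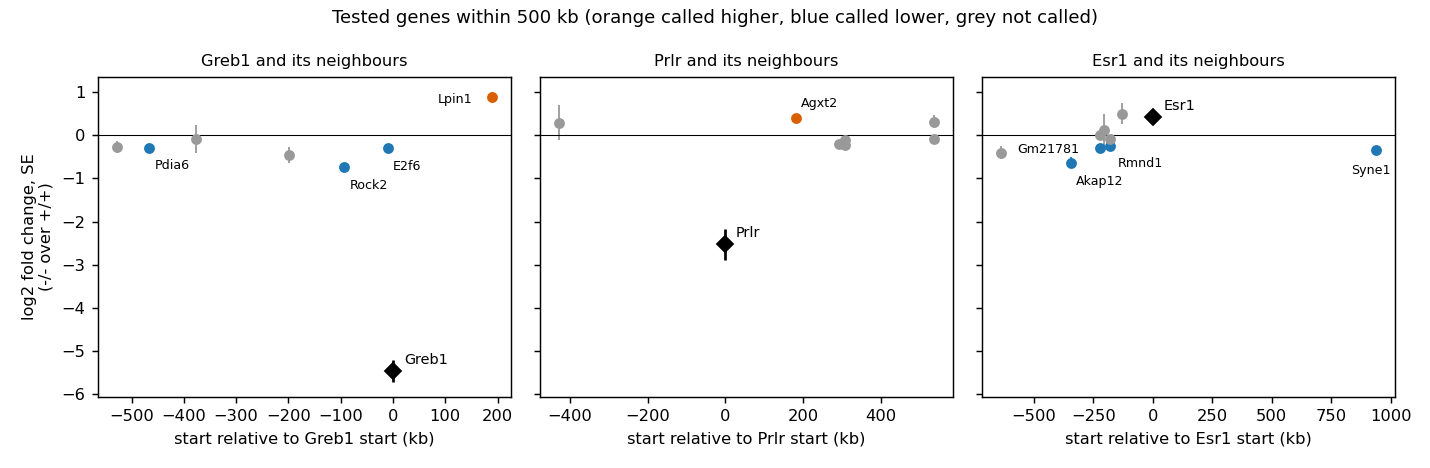
Log2 fold change (CDH11-/- over CDH11+/+, with SE) of each member (black diamond at 0) and of tested genes reaching within 500 kb, against the distance of their start from that of the member in kb, positive in the direction of its transcription. The neighbours of Greb1 and Prlr lie between -0.74 and 0.88, and these members, chosen for a large fall, lie at -5.46 and -2.53.

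Markers of tissues that could adhere to a kidney were low in both groups. Of 5 adrenal cortex genes, Cyp11b2 was at 0 in every library, Cyp11b1 and Cyp11a1 had at most 3 counts in any, and Cyp21a1 had 0 counts in the CDH11+/+ libraries and 4, 1, 1 and 5 in the CDH11-/- ones. The list summed to 1.28 to 1.55 CPM in the CDH11+/+ and 1.06 to 1.87 CPM in the CDH11-/- libraries. Of 4 fat cell genes, Adipoq was at 0 in every library and Fabp4, also a gene of endothelium, at group means of 16.5 and 16.3 CPM, and the list summed to 13.4 to 20.01 and 12.27 to 18.39 CPM (0 called). Of 4 liver genes, Serpina3k was at 0 in every library, and the list, mostly Alb, summed to 5.97 to 8.15 and 2.98 to 6.04 CPM (0 called). Markers of some cell types within the kidney differed, while the stromal and leukocyte sums overlapped between the groups. Over all tested genes 29.7% were called. Summed CPM of 5 stromal markers was 146.8 to 278.9 in the CDH11+/+ and 259.7 to 314.7 in the CDH11-/- libraries (2 called higher, 1 lower), that of 4 podocyte markers 328.3 to 408.2 and 203.8 to 301.8 (0 higher, 3 lower), that of 4 endothelial markers 183.1 to 229.9 and 142.6 to 176.8 (0 higher, 1 lower), and that of 4 leukocyte markers 16.3 to 32.9 and 18.6 to 21.2 (0 called). The 5 markers of proximal tubule segment S3, 2 of which are also in the male list, summed to 2041 to 2288 CPM and 4972 to 5234 CPM, so they were higher where Greb1 and Prlr were lower. The part of these markers in the levels of Greb1, Prlr and Esr1 was not tested.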

How the data were processed

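RNA of whole kidney was sequenced from 3 mice labelled CDH11+/+ and 4 labelled CDH11-/-, grouped by the genotype in the labels. Replicate numbers follow the order of deposit and pair no libraries. The authors' expected counts (estimated reads per gene) were deposited as whole numbers, and the deposited normalized values (a signal with no fixed total) equal the counts times factors that differ between genes. DRAGEN, DESeq2 and mm10 are named, with no versions, per the submitters' processing notes. The sources used here do not give the annotation, the strand setting or the origin of the factors.

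The 42256 identifiers were matched to symbols, positions and exon lengths of GENCODE M21 on the mm10 assembly, and list names also through RefSeq synonyms, which left Sts unmatched. Genes were filtered with filterByExpr, which left 17964, scaled by TMM and fitted with edgeR's quasi-likelihood test (robust, 2-sided, edgeR 4.0.16, R 4.3.3), with Benjamini-Hochberg adjustment over all tested genes and a threshold of 0.05. The biological coefficient of variation was 15.2%. Standard errors were derived from the log2 fold change and the F statistic. CPM used TMM-scaled library sizes. The fitting step was tested on simulated data. All 21 pairs of libraries differed by more than sampling noise (median chi-square per gene of 2.72 to 12.6), and the p-values measure the spread between these libraries.

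The members, the gene lists and the rule for named genes were chosen with earlier results of these data known. Named were the members, Greb1l, Cdh11, called genes of each list, called genes within 500 kb of a member and the 5 most similar genes of each (log2 of CPM plus 0.1), and others are marked as picked after their values were seen. Alternatives used DESeq2 1.42.0, limma 3.58.1 (voom with sample quality weights, and limma-trend on normalized values on a log2 scale with 1 added), sva 3.50.0, other scalings and filters, and each library left out. A fit with the deposited factors as offsets was added after seeing the data. A few genes that are counted in the lists are not reported here.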

Additional observations from a re-analysis of the deposited data

Results flagged for a closer look

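Each of 70 genes was examined for a CDH11-/- library that stood apart from the other 3, by the gap to its nearest neighbour over the range of the group. Chance flags about 1 in 20 groups. Greb1 was at 0.80 CPM in CDH11-/- replicate 2 and at 0.40 to 0.44 CPM in the other 3 libraries. In the authors' normalized values CDH11-/- replicate 4 was the highest of the group instead. Hsd17b12 was at 43.93 CPM in CDH11-/- replicate 2 and at 39.40 to 39.87 CPM in the others. No other of the 70 genes met this criterion.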

How the results depend on the processing

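Across 16 alternatives the log2 fold changes of Greb1 (-5.74 to -5.29), Prlr (-3.19 to -2.29) and Esr1 (0.29 to 0.49) kept their direction, and Esr1 kept its call (adjusted p = 0.00367 to 0.0451). Leaving out each library in turn gave -5.74 to -5.29, -2.85 to -2.29 and 0.32 to 0.49. The value of -3.19 for Prlr came from limma-trend on the deposited normalized values, whose factors for Prlr differ between libraries. In that fit and in the fit with those factors as offsets, which was chosen after seeing the data, 4 cofactors fell in place of 7 and 0 steroid receptors rose in place of 1. Steroid receptors that fell numbered 2 in place of 1 in all 9 alternatives that left out no library, and prolactin receptor signalling genes that rose numbered 4 in place of 2 with DESeq2. The cause of these changes in count was not tested. With each library left out in turn, 1 to 2 steroid receptors fell, 4 to 7 cofactors fell, 2 to 4 estrogen response genes rose, 1 to 4 signalling genes rose and 1 to 3 fell, and 1 to 3 neighbouring genes were higher and 4 to 8 lower. Of the 67 single genes named beside the members, 45 called ones kept their call in all alternatives and 16 lost it in at least 1, and no value changed sign with a call. No paired analysis was possible because the labels carry no replicate numbers that link libraries of the 2 genotypes. Depth limits Greb1 in the CDH11-/- libraries (34 to 57 counts) and Esr2. Gene counts do not separate receptor forms of Prlr, and 7 libraries limit what small differences could pass the test.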
